A study of Mus musculus with 16 samples.

Results

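Lung group 2 innate lymphoid cells (ILC2s) taken 4 months after intranasal IL-33 were compared with ILC2s of naive lungs. The comparison rests on 4 of the 16 arrays of the study, chosen by their labels, with 2 arrays in each group, and on all 22180 genes that could be named from a probe set with a single gene symbol. All mice were C57BL/6J, and no genetic modification is given in their labels. The naive group had no IL-33, and the 4-month group had been given IL-33 intranasally 4 months before the cells were taken. Lung ILC2s at day 4 (3 arrays) and week 2 (3 arrays) after IL-33 are given beside them, and the remaining arrays, from the mediastinal lymph node, entered the fit only as a source of the estimated spread. Each array is labelled a biological replicate, but the labels do not say how many mice each array pools, nor the mice's age, nor the markers by which the cells were sorted.

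ILC2s are tissue-resident lymphocytes without rearranged antigen receptors. IL-33, an alarmin released by damaged epithelium, acts on them through its receptor and makes them release type 2 cytokines such as IL-5 and IL-13. ILC2s that have once been activated are known to persist in the lung and to answer a later challenge more strongly than naive cells, which is why the cells long after IL-33 are set against cells that never saw it.

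The naive and 4-month arrays were the noisiest of the series. The interquartile range of the log2 signal over genes was 2.39 and 2.45 for naive cells and 2.05 and 2.47 for 4-month cells, against 2.85 to 3.07 on the other 12. The replicates correlated at r = 0.937 in the naive group and 0.947 at 4 months, against 0.978 to 0.986 for the other arrays with their own group. Genes were therefore tested with limma array weights, and a second count with equal weights is given where named as such. The narrowest array was 4-month replicate 1. Among the 5545 genes with the highest level, the median signal was 6.62 and 6.70 in naive cells and 6.20 and 6.65 at 4 months. No detection calls were used here, so a low signal is a level and not an absence.

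Genes of ILC2 identity, which T cells in part share, had strong signals in both groups. Gata3, the lineage-defining transcription factor, had log2 signals of 9.17 and 9.45 in naive cells and 9.36 and 9.60 at 4 months. Il7r, the receptor chain for the survival cytokine IL-7, stood at 10.72 and 10.93 and then at 11.03 and 11.27. Thy1, a surface glycoprotein of lymphocytes, stood at 10.56 and 10.62 and then at 10.39 and 10.99. The signals of these genes were similar in size on all 4 arrays, and none of the 3 genes passed the test. The Il7r arrays of the groups were separate by 0.094. Id2 and Bcl11b, of the ILC2 transcription factor list, were lower without overlap, with differences of -0.50 and -0.36, and did not pass. Of the 22 measured factors of that list, 2 were higher (9.09%, all genes 16%) and 4 lower (18.2%, all genes 18.6%) without overlap. In bulk samples, fewer cells of a type and less RNA per cell cannot be told apart.

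At 4 months, 4 of 22180 genes passed (limma with array weights, adjusted p under 0.05), a background share of 0.018%. One immunoglobulin segment, Igkv5-43, was higher, and Cd8b1, Cd3e and Alox5 were lower. Without adjustment, 1408 genes had a p under 0.05. With equal weights 436 genes passed (1.97%), of which 159 were higher (0.717%) and 277 lower (1.25%). Each of these 436 genes had groups that did not overlap, as did 3553 higher genes (16%) and 4119 lower genes (18.6%) among all tested. The median difference over all genes was -0.02.

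**Figure D1:**
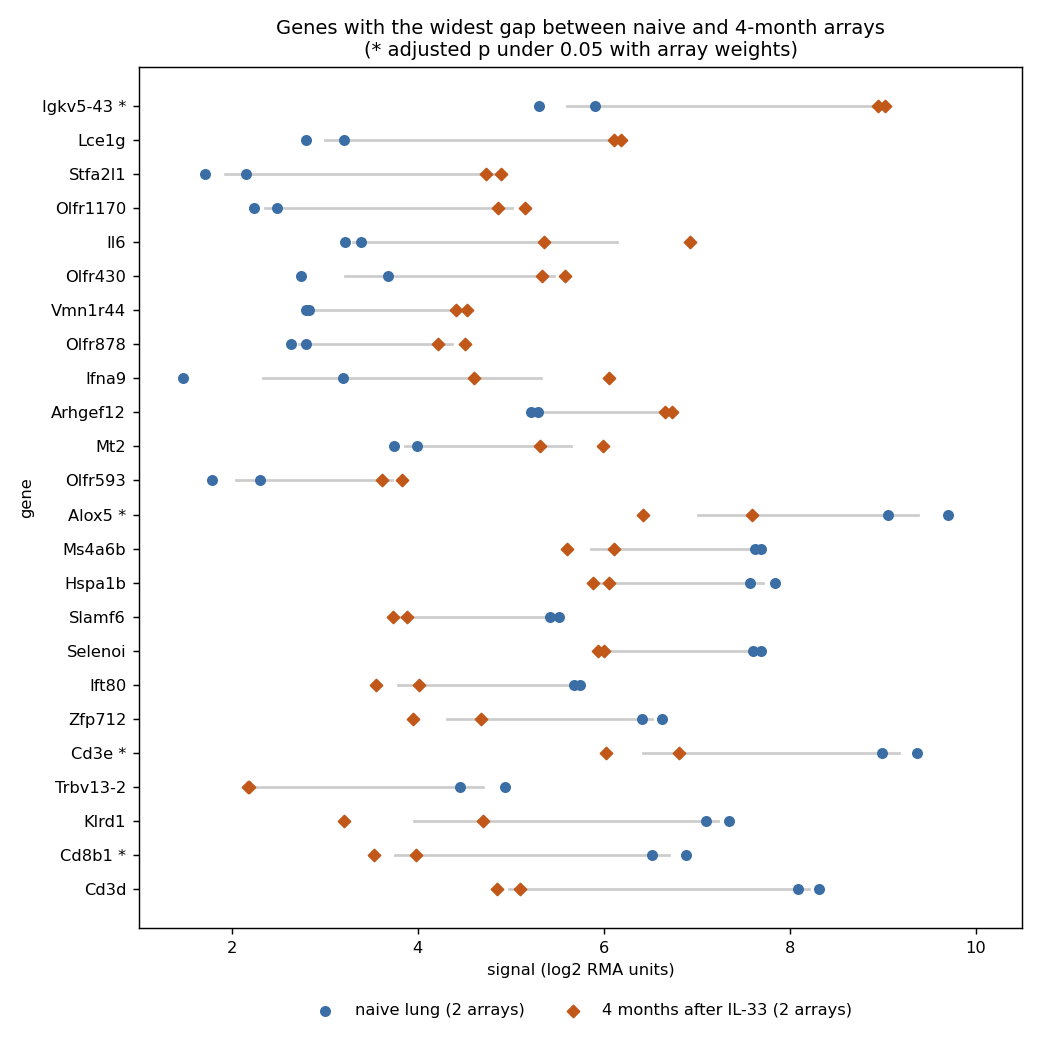
Log2 RMA signal of the genes with the widest gap between groups on each of the 2 naive (circles) and 2 4-month (diamonds) arrays, grey lines joining the group means. Igkv5-43, Alox5, Cd3e and Cd8b1, marked with a star, passed with array weights, and in every gene drawn the arrays of the groups did not overlap.

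Cd8b1 encodes the beta chain of the CD8 co-receptor of cytotoxic T cells (chromosome 6, 71322788 to 71337492, GRCm38.p6). Its log2 signal was 6.51 and 6.88 in naive cells and 3.53 and 3.98 at 4 months. Both 4-month arrays lay below both naive arrays, with a gap of 2.53. The difference was -2.94 ± 0.33 (SE), a 7.69-fold lower signal, with an adjusted p of 0.00209 in limma. The day 4 and week 2 means were 3.55 and 3.88, close to the 4-month level.

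Cd3e, the epsilon chain of the CD3 complex that signals for the T cell receptor, lies at chromosome 9, 44998735 to 45009663. It stood at 8.99 and 9.37 in naive cells and at 6.02 and 6.81 at 4 months. The groups were separate, and the difference of -2.76 ± 0.43 passed with an adjusted p of 0.0415 in limma. Leaving out any single array of the 2 groups took Cd3e out of the genes that passed. Its partners Cd3d and Cd3g did not pass. Cd3d had signals of 8.09 and 8.32, then 5.10 and 4.85, a difference of -3.23 ± 0.79 with an adjusted p of 0.316. The gap between the groups was wider for Cd3d than for Cd3e. The standard error draws on the spread in all 6 groups, and at day 4 Cd3d was at 5.59, 5.08 and 4.28. Cd3g had signals of 8.33 and 9.05, then 7.10 and 7.60, a difference of -1.34 ± 0.33. At day 4 the mean of Cd3g was 8.98, near its naive level, and the mean of Cd3e was 6.01, near its 4-month level.

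The T cell markers were listed as a sign of other cells. Of the 12 measured, 2 passed and fell, 8 had non-overlapping groups and were lower (background 18.6%), and 0 were higher. With equal weights 5 of 12 were lower (all genes 1.25%). The median difference was -0.93, against -0.02 over all genes, and members ranged from -3.23 to -0.11. The list mean was 6.54 and 6.45 in naive cells, 5.17 and 5.24 at 4 months, and 5.16 to 5.34 on the 6 other lung arrays. Both naive arrays stood above every other lung array. Among the markers, Themis, which sets the T cell receptor signalling threshold, stood at 6.69 and 6.29 in naive cells and 3.94 and 4.99 at 4 months. The T cell receptor segment Trbv13-2 stood at 4.94 and 4.45, then 2.17 and 2.18, and did not pass (adjusted p = 0.335). Of the 8 T cell receptor variable segments measured, 2 were lower (25%, all genes 18.6%) and 1 higher (12.5%, all genes 16%) without overlap. Their median was -0.11, against -0.93 in the marker list. The mean of the segments was 5.44 and 5.77 in naive cells and 5.22 and 5.15 at 4 months. On the 6 other lung arrays it was 4.28 to 4.80. Segments of receptor and immunoglobulin genes are near-identical families, so the probe sets may be shared between members.

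**Figure D2:**
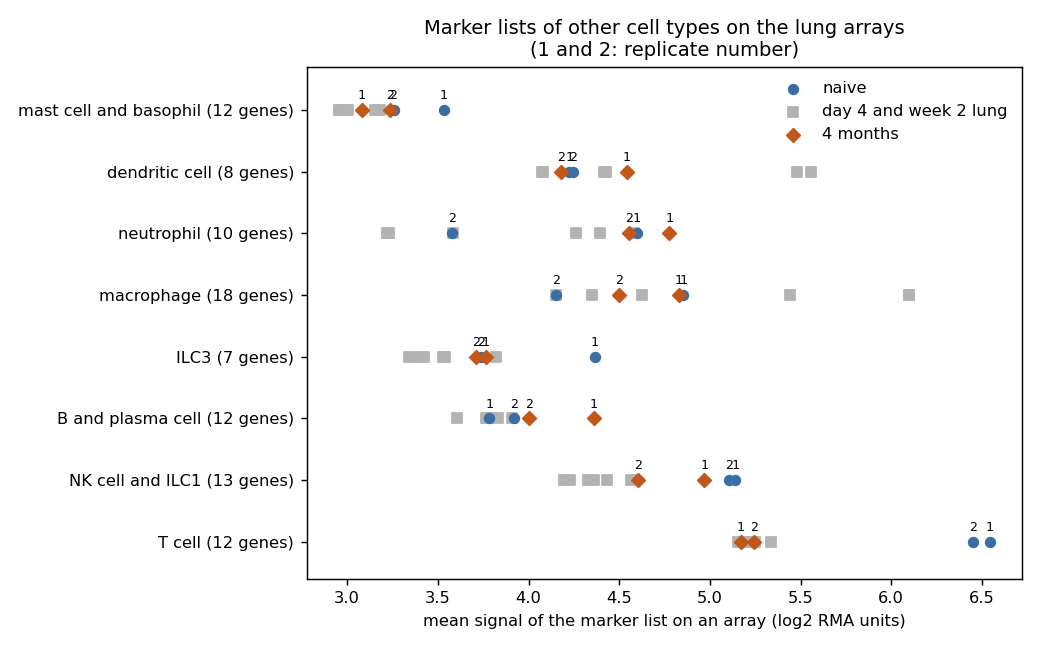
Mean log2 RMA signal of marker lists for other cell types (rows) on each lung array: naive (circles), 4-month (diamonds) and the 6 day 4 and week 2 arrays (squares), with replicate numbers above. The T cell mean is 6.45 or more on both naive arrays and 5.34 or less on every other lung array. The neutrophil and macrophage means differ within the naive pair and also among the day 4 and week 2 arrays.

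Genes linked to memory and naive T cells were lower in value at 4 months, without passing. Of 19 measured genes, 11 were lower without overlap (all genes 18.6%) and 1 higher (all genes 16%). With equal weights 5 passed as lower (all genes 1.25%), and with array weights 0 passed. The median was -0.56. Lef1, a transcription factor of the Wnt pathway, stood at 7.70 and 7.84 and then at 5.56 and 6.42, a difference of -1.78 ± 0.36 (adjusted p = 0.145). Satb1, a chromatin organiser, stood at 6.75 and 7.14 and then at 5.15 and 5.53. S1pr1, the receptor that lets lymphocytes leave tissue along sphingosine phosphate gradients and a member of the residency and egress list, stood at 7.60 and 7.34 and then at 6.07 and 5.23, a difference of -1.82 ± 0.32 (adjusted p = 0.076). Of the 27 residency and egress genes, 8 were higher (29.6%, all genes 16%) and 6 lower (22.2%, all genes 18.6%) without overlap, with a median of -0.05. Lef1, Satb1 and S1pr1 did not pass. Lef1 and Satb1 were chosen from list members without overlap, so their separation follows from that choice. The levels of Lef1, Satb1 and S1pr1 moved in the same samples as the T cell markers above, and the part of T cells in them was not tested.

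A few killer-cell genes had lower values at 4 months. Klrd1, the CD94 chain of NK receptors, stood at 7.35 and 7.10 in naive cells, at 4.70 and 3.21 at 4 months, and had a mean of 2.88 at day 4. Its difference was -3.27 ± 0.62 (adjusted p = 0.099). Nkg7, a cytotoxic granule protein, stood at 7.97 and 7.87, then 5.94 and 6.46, and Ifng, the type 1 cytokine, at 5.09 and 4.46, then 3.54 and 3.30. Over the 13 NK cell and ILC1 markers 4 were lower without overlap, or 30.8% against 18.6% of all genes, and 2 higher, or 15.4% against 16%, with a median of 0.09. The list means were 5.14 and 5.11, then 4.97 and 4.61.

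Alox5, which encodes 5-lipoxygenase, the enzyme that starts leukotriene synthesis, fell. It is at chromosome 6, 116410071 to 116461178, on the minus strand. Its signal was 9.70 and 9.06 in naive cells and 6.42 and 7.59 at 4 months, with no overlap. The difference was -2.37 ± 0.37, with an adjusted p of 0.0415 in limma, and the second Alox5 probe set differed by -2.35. Alox5 no longer passed without naive replicate 1 or without 4-month replicate 1. On the other lung arrays it lay between 7.35 and 7.93, below both naive arrays. The difference between 4 months and day 4 was -0.47 ± 0.29 (adjusted p = 0.30). Of the 22 measured eicosanoid genes 4 were lower without overlap, or 18.2%, near the 18.6% of all genes, and 0 were higher against 16%. Alox5 was the only one of the 22 to pass. Hpgds, a prostaglandin D synthase, stood at 5.14 and 7.03 and then 4.43 and 5.08, and did not pass (adjusted p = 0.722).

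The promoters of Alox5 and Il6 are shown because Alox5 fell and Il6, described next, had the largest difference among the cytokines. They are the 250 bases before the annotated start, from RefSeq on GRCm38.p6, in the gene's direction. Capitals mark the searched motifs on both strands, which are NF-kB (GGGATTTTCC in the Il6 window, searched with any base at its positions 5 and 6), AP-1 (searched as TGANTCA), the letters TGACG, the letters GATAA and, for Sp1, GGGCGG. The Alox5 window is chr6:116461179-116461428, minus strand, and the Il6 window is chr5:30012864-30013113, plus strand.
Alox5: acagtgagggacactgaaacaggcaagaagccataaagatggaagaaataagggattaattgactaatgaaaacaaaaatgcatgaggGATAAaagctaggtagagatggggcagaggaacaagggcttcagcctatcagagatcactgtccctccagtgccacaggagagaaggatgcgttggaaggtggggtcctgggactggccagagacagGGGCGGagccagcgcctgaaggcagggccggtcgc
Il6: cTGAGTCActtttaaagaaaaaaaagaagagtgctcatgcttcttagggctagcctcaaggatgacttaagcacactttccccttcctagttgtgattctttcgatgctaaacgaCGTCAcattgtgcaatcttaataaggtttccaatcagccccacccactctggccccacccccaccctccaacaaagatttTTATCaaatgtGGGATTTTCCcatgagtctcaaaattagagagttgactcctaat
The Il6 window holds 1 match each to NF-kB, AP-1, TGACG and GATAA. The Alox5 window holds 1 GATAA and 1 GGGCGG and no match to the NF-kB or AP-1 letters. Among 32851 promoters of the same length, 1.21% hold the NF-kB letters, 6.75% AP-1, 17.8% TGACG, 22.6% GATAA and 32.7% GGGCGG. A match describes letters in the window and not binding.

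Il6, an inflammatory cytokine, had the largest difference of the 17 cytokines. Its signal was 3.39 and 3.22 in naive cells and 5.35 and 6.92 at 4 months, both 4-month arrays above both naive arrays. The difference was 2.84 ± 0.51 and missed the threshold with array weights (adjusted p = 0.076), while it passed with equal weights (adjusted p = 0.00194). Earlier after IL-33 it stood at 7.25, 7.25 and 7.98 on day 4 and at 6.53, 6.64 and 7.10 at week 2. The difference of 4 months from day 4 was -1.28 ± 0.40 (adjusted p = 0.044).

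Il2, the T cell growth factor, had its highest values at week 2 and 4 months. It stood at 6.95 and 6.36 in naive cells, at 5.49 to 6.35 at day 4, at 7.76 to 8.21 at week 2 and at 8.22 and 8.05 at 4 months. The 4-month arrays lay above the naive and day 4 arrays and within or just above the week 2 range. Against naive cells the difference was 1.48 ± 0.45 (adjusted p = 0.485, and 0.0169 with equal weights). Against day 4 it was 2.27 ± 0.35 and passed (adjusted p = 7.78e-04). For that contrast 2898 genes passed in all (13.1%), 653 higher (2.94%) and 2245 lower (10.1%), a count that was 340 without 4-month replicate 1.

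The effector cytokines Il5 and Il13 did not pass. Il5 was at 7.86 and 7.23 and then at 7.93 and 8.41, and Il13 at 10.71 and 10.06 and then at 10.32 and 10.53. The Il13 groups overlapped, and the Il5 arrays were separate by 0.068. Csf2, a growth factor of myeloid cells, was at 7.82 and 7.93 and then at 8.65 and 8.78. Csf1, the macrophage growth factor, was at 5.85 and 6.16 and then at 6.88 and 7.20. None of these passed with array weights. Over the 17 cytokines measured, 7 were higher and 2 lower without overlap (background 16% and 18.6%), and the median difference was 0.31.

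Il17rb and Il1r2 stood between their naive and day 4 levels. Il17rb, the IL-25 receptor, stood at 7.91 and 7.51 in naive cells, at 9.57 to 9.84 on day 4 and at 8.48 and 8.76 at 4 months. The 4-month arrays were above both naive arrays and below all day 4 arrays. The difference from naive was 0.91 ± 0.28 (adjusted p = 0.476) and that from day 4 was -1.06 ± 0.22 (adjusted p = 0.00503). Il1r2, the decoy receptor for IL-1, stood at 3.36 and 3.16, then 4.48 and 5.43, and its day 4 mean was 9.12. Of 23 cytokine receptors, 5 were higher (21.7%, all genes 16%) and 7 lower (30.4%, all genes 18.6%) without overlap, with a median of -0.22. Il6st, the shared signalling chain of the IL-6 family, stood at 7.29 and 7.57 and then at 5.93 and 5.17, and Kit, the stem cell factor receptor, stood at 9.31 and 9.23 and then 7.96 and 8.85.

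**Figure D3:**
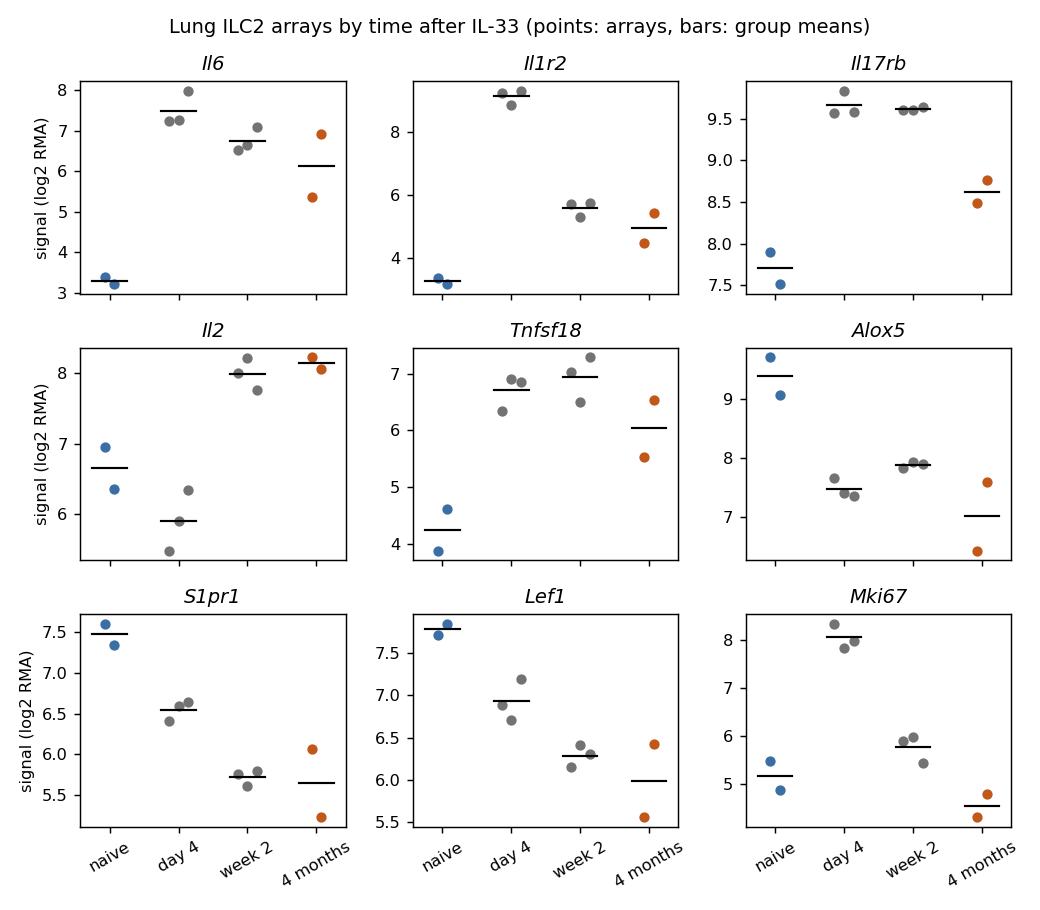
Log2 RMA signal of 9 genes on the lung arrays: naive (2), day 4 (3), week 2 (3) and 4 months (2), points for arrays and bars for means. Il6 at 4 months is above both naive arrays, Il2 is highest at week 2 and 4 months, Alox5 lies below the naive arrays in all later groups, and Mki67, a proliferation marker, is highest at day 4.

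Proliferation and ILC2 identity genes did not pass. Mki67, a proliferation marker, was at 5.47 and 4.87 and then 4.30 and 4.78, against a day 4 mean of 8.05. Of 38 cell cycle genes, 7 were higher and 7 lower without overlap, or 18.4% each way, near the 16% and 18.6% of all genes, and the median was -0.00. Of 22 ILC2 transcription factors 2 were higher (9.09%) and 4 lower (18.2%), with a median of -0.03 that was 0.02 with arrays scaled to the same spread. Rora, a retinoid-related factor needed for ILC2 development, was at 6.31 and 6.00 and then 6.43 and 6.65. Klrg1, an inhibitory receptor of mature ILC2s, was at 7.85 and 8.70 and then 7.68 and 8.18, overlapping. Itgae, the CD103 integrin chain, was at 6.19 and 4.63 and then 4.86 and 4.63, against a day 4 mean of 9.34. Tigit, an inhibitory receptor, was at 3.56 and 3.90 and then 3.22 and 3.20, against 7.13.

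None of the 20 immediate early genes measured passed with either weighting. Without overlap 10 were higher (all genes 16%) and 0 lower (all genes 18.6%), with a median of 0.38. Egr3, an early growth response factor, was at 6.75 and 6.74 and then 7.56 and 8.77, and Nr4a3, an orphan nuclear receptor, at 8.03 and 8.32 and then 9.11 and 9.59. The list mean was 8.57 and 8.60 in naive cells and 8.82 and 9.18 at 4 months, but ranged from 8.04 to 9.23 over the day 4 replicates alone. With all arrays scaled to the same median and spread the list median was 0.78.

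None of the 22 interferon-stimulated and 18 oxidative phosphorylation genes measured passed with array weights. With equal weights 2 of the 22 (9.09%) and 2 of the 18 (11.1%) passed as lower (all genes 1.25%), and 0 as higher. Of the interferon-stimulated genes, 9 were lower (all genes 18.6%) and 3 higher (all genes 16%) without overlap, with a median of -0.34. Ifih1, the RNA sensor MDA5, was at 5.55 and 5.19 and then 4.23 and 4.09, and did not pass (adjusted p = 0.655). Of the oxidative phosphorylation genes 6 were lower and 0 higher without overlap, against the same shares of all genes, with a median of -0.25, among them Sdhb, a subunit of complex II, at 6.58 and 6.50 and then 5.38 and 5.89. Their list means were 7.43 and 7.50, then 6.90 and 7.34, lowest on 4-month replicate 1, which also had the narrowest signal range. Without that array the median of the oxidative phosphorylation genes was -0.06.

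**Figure D4:**
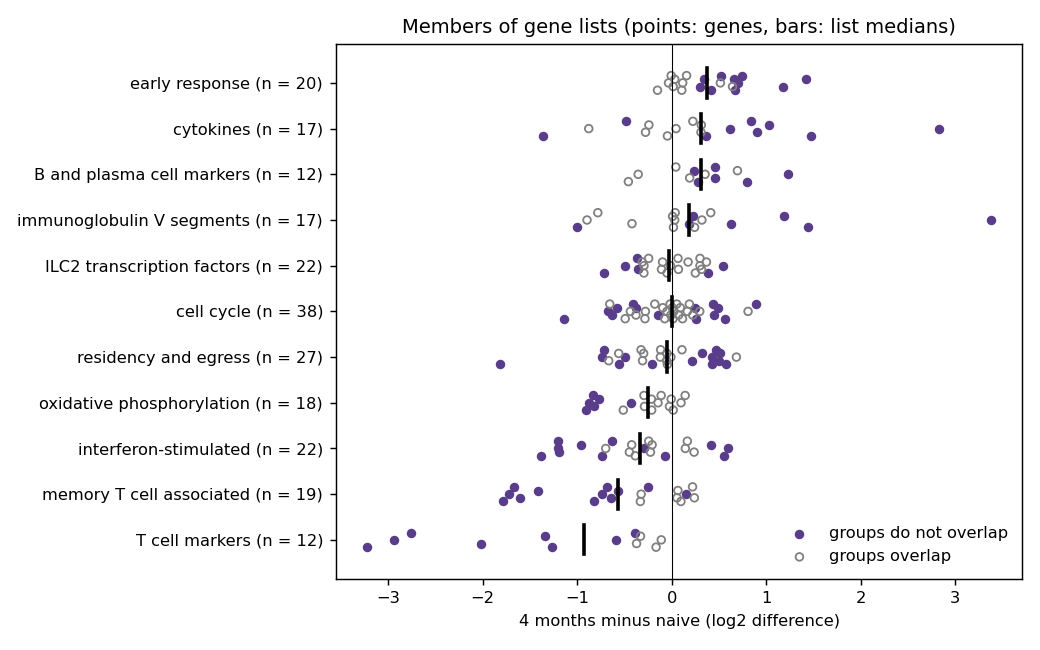
Log2 difference of 4 months minus naive for members of 11 gene lists, filled where the groups did not overlap, with bars at list medians. T cell markers have a median of -0.93 and early response genes one of 0.38, and ILC2 transcription factors and cell cycle genes lie around 0.

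Igkv5-43, a variable segment of the immunoglobulin kappa locus (family 5, segment 43, chromosome 6, 69823355 to 69823911), rose in 1 probe set. Its signal was 5.30 and 5.90 in naive cells, 6.68 and 6.27 on average at day 4 and week 2, and 8.94 and 9.02 at 4 months. The difference was 3.38 ± 0.40 (adjusted p = 0.00209). The other 2 probe sets carrying this symbol differed by 0.04 and -0.03, and with the mean of the probe sets the difference was 1.13 and did not pass (adjusted p = 0.424). Of 17 immunoglobulin variable segments 6 were higher (all genes 16%) and 1 lower (all genes 18.6%) without overlap, with a median of 0.18 that was -0.02 with arrays scaled to the same spread. Of 12 B and plasma cell markers 6 were higher and 0 lower without overlap, against the same shares of all genes, and 0 passed. Ms4a1, the B cell antigen CD20, was at 2.61 and 2.72 and then 4.11 and 3.69. The B and plasma cell list mean was 3.78 and 3.92, then 4.36 and 4.00, and the part of B cells in the Igkv5-43 value was not tested.

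Genes with low signals made up part of the higher side. Olfactory and vomeronasal receptors, known from sensory neurons of the nose, were 6.27% of genes tested and 14.5% of the 159 genes that were higher with equal weights, against 2.53% of the 277 lower. Olfr1170 stood at 2.48 and 2.23 and then at 4.86 and 5.15. Lce1g, a cornified envelope gene of skin, stood at 2.80 and 3.21 and then 6.11 and 6.18. The median over all 1390 receptors was 0.06, or -0.11 with arrays scaled to the same spread. The lower calls lay at higher levels, with 166 of 277 among the 5545 genes of highest level.

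**Figure D5:**
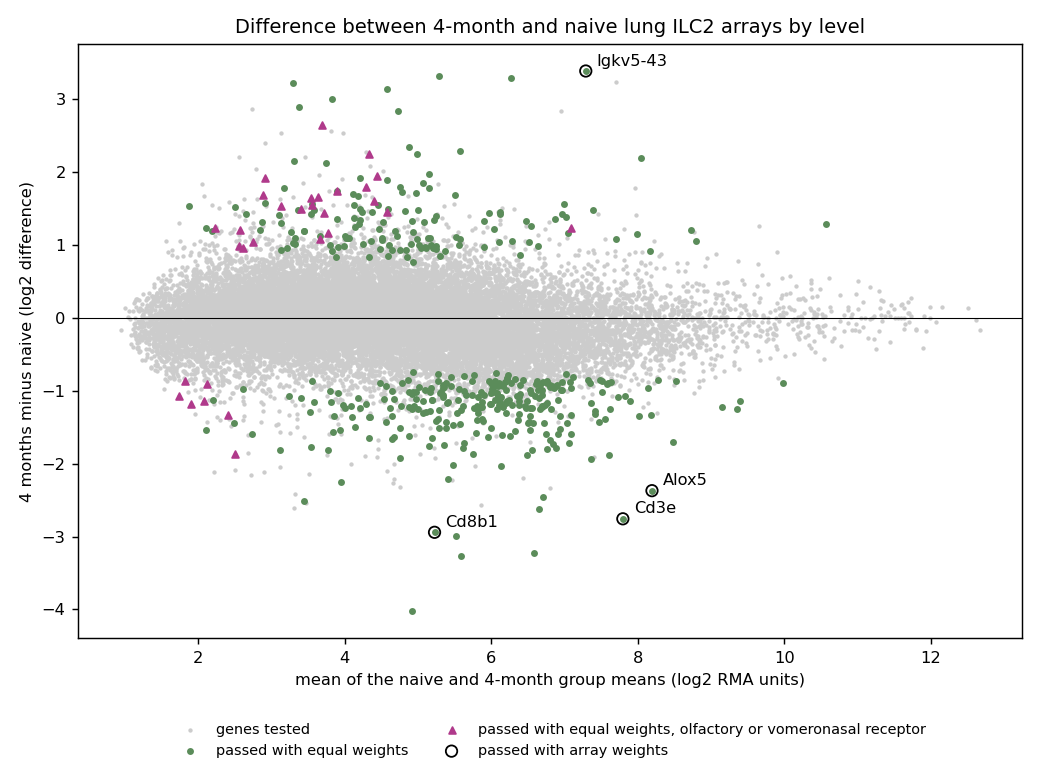
Difference of 4 months minus naive (log2) against the mean level of each gene, for all 22180 genes, those passing with equal weights (dots, or triangles for olfactory and vomeronasal receptors) and the 4 passing with array weights (circles). Triangles lie mostly at low levels on the higher side, and the lower calls mostly at higher levels.

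MicroRNA genes are on the array as loci, and the probe sets do not tell the mature form from its precursor. Mir146 stood at 1.51 and 1.85 and then 4.13 and 5.66, and Mir215 at 6.20 and 7.65 and then 2.41 and 3.39. Both had groups without overlap and neither passed (adjusted p = 0.132 and 0.243). Their mature 5p forms, from RefSeq, are shown with the seed (bases 2 to 8) in capitals, because these loci differed in opposite directions.
mmu-miR-146a-5p: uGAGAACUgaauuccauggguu
mmu-miR-215-5p: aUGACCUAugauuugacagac
The seeds of miR-146a-5p and miR-215-5p differ. Over 472 miRNA genes 102 were higher (21.6%, all genes 16%) and 77 lower (16.3%, all genes 18.6%) without overlap, and the median was 0.08, or -0.04 with arrays scaled to the same spread.

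S100a8 and the neutrophil and macrophage lists differed between the naive replicates, and also between replicates at day 4 and week 2. At day 4 S100a8 was at 8.85, 8.47 and 4.41, and at week 2 at 4.71, 4.77 and 7.93. The macrophage list mean was 6.10, 6.10 and 4.62 at day 4 and 4.35, 4.15 and 5.44 at week 2. The dendritic cell list mean was similar in the naive pair, at 4.23 and 4.25. S100a8, a neutrophil calgranulin, was at 8.84 on naive replicate 1 and 3.34 on replicate 2, against 9.25 and 9.39 at 4 months. The neutrophil list mean was 4.60 and 3.58, then 4.78 and 4.56, and the macrophage list mean 4.85 and 4.15, then 4.83 and 4.50. The naive arrays lay on both sides of the 4-month macrophage means, and on naive replicate 2 the neutrophil mean was the lowest of the 4.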

How the data were processed

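Trizol-extracted total RNA of the ILC2s was biotin-labelled, per the labels' protocols. The deposited values are log2 RMA signals, for which the submitters' processing notes name Affymetrix Expression Console. As a method, RMA corrects background, quantile-normalizes arrays and summarises probes. The sources used here give neither versions nor a genome build. Of 41345 probe sets, 23521 had 1 gene symbol, 1814 several and 16010 none. The probe set with the highest mean represented each gene, which left 22180 genes, 1082 of them with several probe sets. Scanner files were not analysed here, which leaves background unassessed, and the number of arrays limits the precision.

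Means of the 6 groups were fitted to all 16 arrays with limma 3.58.1 in R 4.3.3, with array weights (prior of 10 genes), 10 residual and 6.81 prior degrees of freedom, and no filter. The two-sided threshold was an adjusted p of 0.05 (Benjamini-Hochberg, all genes). Errors are limma's moderated standard errors, and p values measure only the spread between these arrays, which the labels call biological replicates. The procedure was tested on simulated data. With the naive and 4-month arrays noisier than the rest, equal weights there gave many calls of genes that had not changed. Alternatives changed the weights, normalization, dim genes, probe set choice, limma options, replicate block, size of difference and arrays included. Array weights were preferred because the arrays compared were noisier than the rest.

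The members and gene lists were chosen with earlier results of these data known. Named genes are those that passed, the 12 higher and 12 lower with the widest gap among genes passing with equal weights (no predicted, microRNA or small nucleolar RNA genes), up to 4 members a list with the largest difference and no overlap, and a fixed set of ILC2 genes. Motif searches used RefSeq promoters of GRCm38.p6. Plots used matplotlib 3.10.9 (Python 3.11.15).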

Additional observations from a re-analysis of the deposited data

How the results depend on the processing

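With 2 noisy arrays a group, counts depended on the fit. Against naive cells 4 genes passed, 1 higher and 3 lower; the counts were 436, 159 and 277 with equal weights, and 0, 0 and 0 with only the 2 groups fitted (equal weights). Repeated quantile normalization gave 8 genes, 5 higher, leaving out dim genes gave 2, with 1 lower, and the mean of probe sets gave 2, with 0 higher. Leaving out 1 array gave 4 to 13 genes, 2 to 6 higher and 2 to 9 lower. Fewer arrays in the fit, or fewer genes tested, are part of some alternatives; the cause was not tested. Against day 4, 2898 genes passed (653 higher, 2245 lower); equal weights gave 5678 (2001 and 3677), quantile normalization 1349 (724 lower), scaled arrays 1278 (753 lower), a log2 difference of at least 1 gave 1919 (1478 lower), and centred medians 364 higher. Leaving out 1 array gave 340 to 2880 genes, 72 to 662 higher and 268 to 2218 lower, the lowest without 4-month replicate 1. Same-numbered naive and 4-month arrays deviated together at only r = 0.078, so numbers were not taken to pair arrays; with the replicate number as a block, 3 genes passed against naive cells (1 higher, 2 lower) and 2830 against day 4 (645 and 2185). Of 50 named genes followed through the alternatives, 29 that missed the threshold passed with equal weights. Il13 was at -0.0059 with centred medians. Leaving out 1 array moved Il13 from -0.28 to 0.37, Klrg1 from -0.76 to 0.082, Thy1 from -0.20 to 0.40 and Itgae from -1.44 to 0.11; no other of these 50 genes turned direction in the alternatives run. The 4 genes that passed kept their direction in the fits that left out 1 array. Cd8b1 ranged from -3.17 to -2.72 and Igkv5-43 from 3.08 to 3.68. Cd3e ranged from -3.15 to -2.36 and Alox5 from -2.96 to -1.79. Leaving out a naive or 4-month array leaves 1 array in that group, which adds nothing to the estimated spread.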

Other observations

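Among genes that passed with equal weights and not with array weights, several lower ones have not yet been named. Slamf6, a lymphocyte adhesion receptor counted above among the genes linked to memory and naive T cells, stood at 5.42 and 5.52 in naive cells and 3.88 and 3.73 at 4 months. The second Slamf6 probe set was at 4.07 and 3.27, then 3.35 and 3.71, a difference of -0.14 with overlapping groups. Ms4a6b, a membrane protein of lymphocytes, stood at 7.62 and 7.69, then 5.61 and 6.11. Zfp712, a zinc finger gene, stood at 6.62 and 6.42, then 4.68 and 3.94, and its difference of -2.21 ± 0.36 came closest to the threshold among them (adjusted p = 0.0553). Hspa1a, an inducible heat shock gene, stood at 8.05 and 5.99, then 3.47 and 4.58, with the naive arrays far apart from each other.

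On the higher side, Tnfsf18, the ligand of GITR, stood at 3.88 and 4.62, then 5.54 and 6.53, and its day 4 mean was 6.70. Mt2, a metallothionein, stood at 3.74 and 3.99, then 5.99 and 5.31. Slc31a1, a copper importer, stood at 4.26 and 2.24, then 5.18 and 5.16. None of these passed with array weights.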
